A study of Homo sapiens with 12 samples.

Results

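The 45 interferon-stimulated genes described here were taken by symbol from a list of genes known to be induced by interferons, out of the 57820 gene IDs listed for each library, by a rule that uses no measured value, although the list was drawn up with earlier results of these data known. All 45 had a row in every library. In BICR31, 43 of them passed the filter on low values and were tested, and in HCC95 34 were tested. RNA-seq of poly(A) RNA was made in 2 human squamous carcinoma cell lines with altered levels of KLF5, a zinc-finger transcription factor of epithelial cells. BICR31, derived from a head and neck tumour, was treated with an siRNA that silences KLF5 (siKLF5, 3 libraries) or with siNC (3 libraries), which by its name is taken as the control siRNA. HCC95, derived from a lung tumour, overexpressed KLF5 with the E419Q change (2 libraries), unchanged KLF5 (WT, 2 libraries) or an empty vector (2 libraries). The comparisons ask how this gene group differed with less KLF5, with more KLF5, and between the changed and the unchanged protein. Both lines keep their own KLF5 gene, so that WT and E419Q were added to the cells' own protein. The promoter of the vectors, the time of harvest and the siRNA sequences were not given in the sources used here.

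Interferons are secreted proteins that bind receptors on the cell surface and act through the JAK kinases. These phosphorylate STAT2, which joins IRF9 in a complex that binds the interferon-stimulated response element in promoters, while genes induced by interferon gamma often carry the shorter gamma-activated sequence. Among the induced genes are sensors of foreign RNA, transcription factors of the pathway itself, and proteins that block steps of viral growth, and epithelial tumour cells can keep some of them on without added interferon.

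The response element was looked for because it is the feature these genes are known to share. Promoter sequences, from 250 bases before to 50 bases after the gene start in RefSeq (GRCh38.p14), were matched for 37 of the 45 genes, with DDX58 listed there as RIGI. The response-element letters GAAA, any 2 bases and GAAA again, on either strand, occurred in 23 of these 37 promoters (62.2%) and in 996 of the 27305 promoters of all genes (3.65%). The shorter TTCNNNGAA, on either strand, occurred in 11 (29.7%), against 7.88% of all promoters. Letters known from binding sites of KLF and SP factors were close to their share elsewhere, at 67.6% against 58.9% for CACCC and 48.6% against 44.6% for GGGCGG, on either strand, where overlaps with other motifs were not removed. A match is a stretch of letters and was not tested as a binding site. Windows of 60 bases around a match are printed 5′ to 3′ on the gene's strand, with the match in capitals, for genes that rose with siKLF5 in BICR31, then for the gene that fell there, then for others that were not called there.
ISG20, chr15:88638922-88638981, plus strand: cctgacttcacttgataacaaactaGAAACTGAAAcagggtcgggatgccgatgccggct
SAMD9, chr7:93118081-93118140, minus strand: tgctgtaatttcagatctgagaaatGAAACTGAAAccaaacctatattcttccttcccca
PLSCR1, chr3:146544652-146544711, minus strand: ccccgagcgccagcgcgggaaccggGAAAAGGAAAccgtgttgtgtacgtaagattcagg
PARP14, chr3:122680779-122680838, plus strand: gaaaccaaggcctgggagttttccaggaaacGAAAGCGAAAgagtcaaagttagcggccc
ISG15, chr1:1013365-1013424, plus strand: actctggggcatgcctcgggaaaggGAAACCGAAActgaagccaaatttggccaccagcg
BST2, chr19:17405720-17405779, minus strand: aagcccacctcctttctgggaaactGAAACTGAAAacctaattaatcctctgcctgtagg
IFI27, chr14:94110616-94110675, plus strand: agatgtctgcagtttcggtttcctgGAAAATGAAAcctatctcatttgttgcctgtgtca
EPSTI1, chr13:42992257-42992316, minus strand: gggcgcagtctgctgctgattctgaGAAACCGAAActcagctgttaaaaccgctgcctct
IFIT3, chr10:89327850-89327909, plus strand: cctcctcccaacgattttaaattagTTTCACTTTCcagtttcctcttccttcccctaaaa
IFI6, chr1:27672251-27672310, minus strand: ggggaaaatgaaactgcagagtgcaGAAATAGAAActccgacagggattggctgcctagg
HERC5, chr4:88457020-88457079, plus strand: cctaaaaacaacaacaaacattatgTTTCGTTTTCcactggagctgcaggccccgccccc
The match in capitals stands in this direction in all of these but IFIT3 and HERC5, in which it stands on the opposite strand. A further match, wholly or partly in lower case, lies in the windows of ISG15, BST2, IFI27 and IFI6. That of IFI27 stands on the opposite strand. Genes with the same or nearly the same letters therefore differed in their calls, as the values below show. No difference between genes was tested, and a gene that was not called may still have changed.

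The libraries held 2150783 to 2296191 estimated counts with siKLF5, 1922358 to 1934361 with siNC, 3074139 to 3364760 counts with E419Q, 3516984 to 3992553 with WT and 3455397 to 4643792 with the empty vector. KLF5 itself went by the labels, with 986, 1008 and 882 units in siKLF5 libraries, against 2682, 2289 and 2619.6 units in siNC libraries, and with 425 and 439 CPM in E419Q libraries and 423 and 406 CPM in WT libraries, against 152 and 138 CPM in empty-vector libraries. The 9 squamous epithelial markers, among them KRT5 and TP63, were detected in every library. Levels in BICR31 are units of the deposited normalised signal, of which 1 count was worth 7.87 to 9.12, and levels in HCC95 are CPM, that is counts scaled to a common library total. Whether the libraries of 1 group are separate cultures is not stated in the labels, and the p-values therefore reflect the spread among these libraries alone, some or all of which may be technical.

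With KLF5 silenced in BICR31, 27 of the 43 tested genes rose and 1, EPSTI1, fell, while 15 did not pass the test. Genes that rose made up 62.8% of those tested, where 15.3% of all 15710 genes rose and 10.8% fell, 26.1% in either direction (limma adjusted p under 0.05). Of all calls 58.7% were rises, a share that was 48.5% after quantile normalization, under which 24 of the interferon-stimulated genes still rose. The median log2 fold change was 0.58 over the 43 genes and 0.04 over all genes tested, and 39 of the 43 values lay above 0. All siKLF5 libraries lay above all siNC libraries for 31 genes and below for 1, where such separation held for 22.4% and 17.5% of all genes. Most changes were modest: 8 genes rose at least 2-fold, as did 3.62% of all genes, and 8 of the called rises were under 1.5-fold. In bulk libraries a change in the RNA of each cell and a change in the share of cells that express a gene cannot be told apart. All silenced libraries carry the 1 label siKLF5. An effect of lower KLF5 and any other effect of that siRNA therefore cannot be told apart either.

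**Figure D1:**
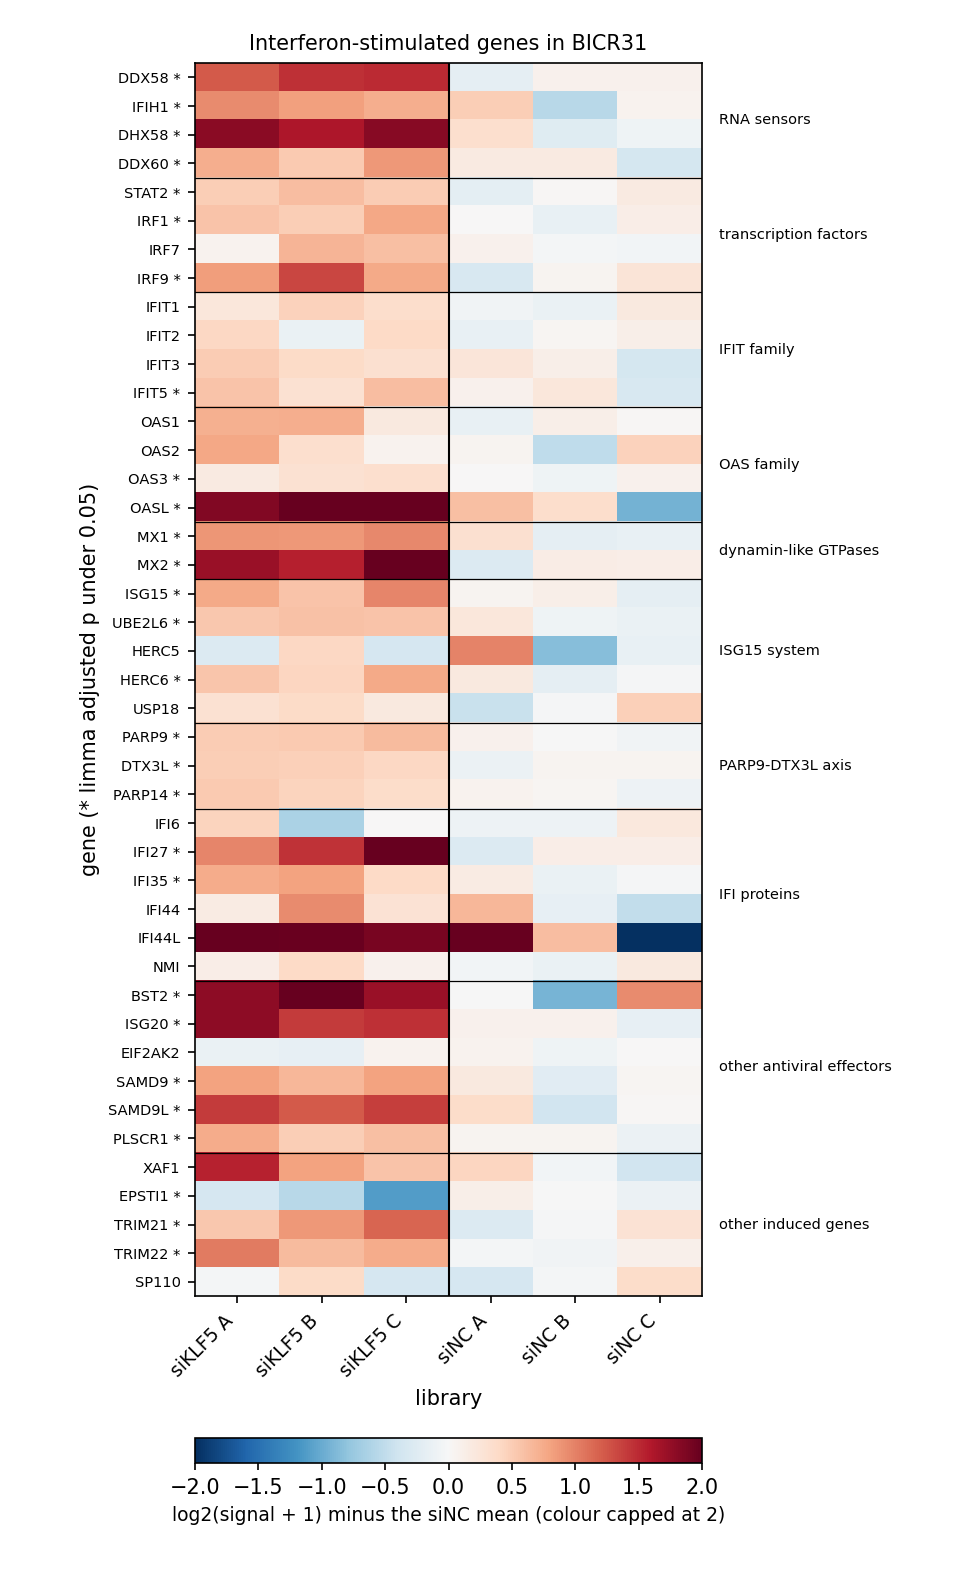
Level of 43 interferon-stimulated genes in each BICR31 library (columns, siKLF5 then siNC), as log2(signal + 1) minus the siNC mean of the gene, grouped by role. The colour scale stops at 2 in either direction, and a star marks a limma adjusted p under 0.05. Of the 28 starred genes, 27 are red in the siKLF5 columns and EPSTI1 is blue.

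The 4 RNA sensors all rose with siKLF5. DHX58 (LGP2), which modulates signalling by the other sensors, had 304, 267 and 307 units in siKLF5 libraries, against 109, 72.9 and 81.3 units in siNC libraries. DDX58 (RIG-I), the sensor of RNA that carries a triphosphate end, had 362, 425 and 433 units in siKLF5 libraries, against 136, 164 and 163 units in siNC libraries. In both genes the lowest siKLF5 library stood at over double the highest siNC library. The log2 fold changes were 1.74 (limma adjusted p = 8.62e-05, SE 0.261) for DHX58 and 1.39 (limma adjusted p = 5.89e-05, SE 0.201) for DDX58. IFIH1 (MDA5), the sensor of long double-stranded RNA, had 698, 642 and 598 units in siKLF5 libraries, against 509, 246 and 379 units in siNC libraries. Its groups did not overlap, but its siNC libraries were widely spread. The log2 fold change of IFIH1 was 0.83 (limma adjusted p = 0.00596, SE 0.205). It was 0.55 without siNC B and 1.07 without siNC A, and was still called in either case. DDX60, a helicase described as an aid to RIG-I signalling, had 398 ± 45.7 units with siKLF5 and 245 ± 48.2 units with siNC (SD, n = 3 each), without overlap. Its log2 fold change was 0.71 (limma adjusted p = 0.0131, SE 0.198), and the call was lost without siKLF5 C (0.63) and without siNC C (0.53), where parentheses give the log2 fold change; adjusted p ranged from 0.0116 to 0.0752 over its 10 alternatives.

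Of the 4 transcription factors 3 rose. IRF1, a factor induced above all by interferon gamma, was already abundant and had 2514, 2392 and 2913 units in siKLF5 libraries, against 1718, 1541 and 1861 units in siNC libraries. Every siKLF5 library was higher, with a log2 fold change of 0.61 (limma adjusted p = 8.63e-05, SE 0.0915). STAT2 had 1282, 1400.0 and 1291 units in siKLF5 libraries, against 791, 921 and 1029.8 units in siNC libraries, again without overlap, and its log2 fold change was 0.54 (limma adjusted p = 0.00131, SE 0.11). IRF9, the DNA-binding partner of STAT2, had 255, 363 and 242 units in siKLF5 libraries, against 114, 149 and 172 units in siNC libraries. It stood at 1.96-fold the control with no overlap between groups, and siKLF5 B was the highest library. Its log2 fold change was 0.97 (limma adjusted p = 0.00763, SE 0.249); the call was lost without siKLF5 B (0.79), and adjusted p ranged from 0.00651 to 0.0592 over the alternatives. IRF7, which amplifies the production of interferon, had 205, 317 and 299 units in siKLF5 libraries, against 209, 191 and 189.7 units in siNC libraries. The siKLF5 A library lay among the controls, and the log2 fold change of 0.45 did not pass the test (limma adjusted p = 0.159).

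Among the 4 IFIT proteins, which bind foreign RNA and hold back its translation, only IFIT5 passed the test. It had 495 ± 54.5 units with siKLF5 and 354 ± 67.1 units with siNC (SD, n = 3 each), a log2 fold change of 0.49 (limma adjusted p = 0.0466, SE 0.175). This call was the least stable one, lost with no filter on low values (0.49), with quantile normalization (0.44), with the letters as a replicate block (0.49), without siKLF5 A (0.46), without siKLF5 C (0.44), without siNC A (0.54) and without siNC C (0.33), with adjusted p from 0.0317 to 0.191 over the alternatives. IFIT3, the binding partner of IFIT1 and IFIT2, had 887, 817 and 779.5 units in siKLF5 libraries, against 736, 675 and 488 units in siNC libraries. Its groups did not overlap, but its log2 fold change of 0.41 stood just outside the threshold (limma adjusted p = 0.0505). IFIT1 had 331 ± 27.2 units with siKLF5 and 260.2 ± 33.1 units with siNC and a log2 fold change of 0.35 (95% interval -0.05 to 0.75, limma adjusted p = 0.191). IFIT2 had 454 ± 90.5 units with siKLF5 and 384 ± 35.7 units with siNC and a log2 fold change of 0.22 (95% interval -0.15 to 0.60, limma adjusted p = 0.393). All 4 values lay above 0, and the upper ends of the 3 uncalled intervals stayed below 1 on the log2 scale.

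The OAS enzymes make a short nucleotide messenger that switches on the RNA-degrading enzyme RNase L, and the related OASL lacks this activity. OASL rose 4.35-fold, from low levels: it had 131, 183 and 165 units in siKLF5 libraries, against 54.5, 45.6 and 18.1 units in siNC libraries. These values rest on 16, 22 and 21 estimated counts with siKLF5 and 6, 5 and 2 with siNC. The lowest siKLF5 library was still more than double the highest siNC library, and the log2 fold change was 2.12 (limma adjusted p = 0.00173, SE 0.445). OAS3, the most abundant of the family in BICR31 by signal, had 2079, 2267 and 2323 units in siKLF5 libraries, against 1845, 1723 and 1951 units in siNC libraries. It was the smallest called rise of the whole gene group, 1.21-fold, with a log2 fold change of 0.27 (limma adjusted p = 0.0182, SE 0.0804). It was not called with quantile normalization (0.20), without siKLF5 B (0.26), without siKLF5 C (0.24) and without siNC B (0.23), and adjusted p ranged from 0.0141 to 0.0883 over the alternatives. OAS1 had 223 ± 43.3 units with siKLF5 and 151 ± 14 units with siNC, without overlap and not called at a log2 fold change of 0.54 (limma adjusted p = 0.121). OAS2 had 70.7 ± 18 units with siKLF5 and 54.4 ± 17.9 units with siNC, with overlapping groups and a log2 fold change of 0.40 (limma adjusted p = 0.576).

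Both dynamin-like GTPases, which trap viral particles or their genomes, rose. MX2 had 329, 292 and 441 units in siKLF5 libraries, against 81.8, 109 and 108 units in siNC libraries. MX1 had 592, 583 and 622 units in siKLF5 libraries, against 400.0, 283 and 289 units in siNC libraries. In either gene the siKLF5 libraries stood clear of the siNC libraries, at 3.49-fold for MX2 and 1.87-fold for MX1. The log2 fold changes were 1.80 (limma adjusted p = 3.92e-05, SE 0.251) for MX2 and 0.90 (limma adjusted p = 0.000536, SE 0.165) for MX1.

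ISG15 is a ubiquitin-like protein that UBE2L6 and the HERC ligases attach to other proteins and USP18 removes. ISG15 itself had 312, 275 and 362 units in siKLF5 libraries, against 191, 201 and 163 units in siNC libraries, with no overlap and a log2 fold change of 0.77 (limma adjusted p = 0.011, SE 0.209). Its call was lost without siKLF5 C (0.67), and adjusted p ranged from 0.0115 to 0.0664 over the alternatives. UBE2L6, the conjugating enzyme, had 2391, 2450.0 and 2441 units in siKLF5 libraries, against 1909, 1541 and 1490.5 units in siNC libraries. Its siKLF5 libraries were nearly equal to each other and above every siNC library, and its log2 fold change was 0.57 (limma adjusted p = 0.000169, SE 0.0915). HERC6, a relative of the main ligase that serves as the ISG15 ligase in mice, had 371 ± 42.7 units with siKLF5 and 248 ± 31.7 units with siNC (SD, n = 3 each). Its log2 fold change was 0.58 (limma adjusted p = 0.0303, SE 0.187); this call was lost with quantile normalization (0.51), without siKLF5 A (0.59), without siKLF5 C (0.49), without siNC B (0.49) and without siNC C (0.57), with adjusted p from 0.0257 to 0.13. HERC5, the main ligase in human cells, had 41.1, 66.7 and 39.4 units in siKLF5 libraries, against 100, 27.4 and 45.2 units in siNC libraries. Its groups overlapped at 5, 8 and 5 against 11, 3 and 5 estimated counts, and the interval of its log2 fold change ran from -1.24 to 1.11. USP18, which removes ISG15 and dampens the type I receptor, had 419.1, 439 and 385 units in siKLF5 libraries, against 247, 331 and 469.7 units in siNC libraries. The siNC C library was the highest of all, and the log2 fold change of 0.29 did not pass the test (limma adjusted p = 0.334).

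PARP9 and DTX3L form a complex that joins ADP-ribosylation to ubiquitin transfer, and PARP14 is a further ADP-ribosyltransferase. PARP14 had 2473, 2358 and 2236 units in siKLF5 libraries, against 1818, 1769 and 1608 units in siNC libraries. DTX3L had 1947, 1917 and 1827 units in siKLF5 libraries, against 1273, 1428 and 1436 units in siNC libraries. PARP9 had 1076, 1083 and 1173 units in siKLF5 libraries, against 800.0, 751 and 723 units in siNC libraries. The 3 genes rose by similar amounts with no overlap between groups, by 0.44, 0.46 and 0.55 on the log2 scale for PARP14, DTX3L and PARP9. Their limma adjusted p-values were 0.000467 for PARP14, 0.000583 for DTX3L and 0.000769 for PARP9. Exons of PARP9 and DTX3L overlap on opposite strands in GENCODE 29, and the use of strand in the counting was not given in the sources used here. Hence reads of the one can have been counted for the other.

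Of 6 genes grouped here, the IFI genes, which are named for their induction, and NMI, 2 rose. IFI35, which binds NMI in a cytoplasmic complex, had 723, 750.0 and 567 units in siKLF5 libraries, against 482, 392 and 425 units in siNC libraries. Its libraries separated fully, and the log2 fold change was 0.64 (limma adjusted p = 0.00383, SE 0.15). IFI27, a mitochondrial protein, rose 2.77-fold on few reads, with 8, 11 and 17 estimated counts in siKLF5 libraries, against 3, 4 and 4 in siNC libraries. In units these were 65.7, 91.7 and 134 with siKLF5 and 27.3, 36.5 and 36.1 with siNC, and the log2 fold change was 1.47 (limma adjusted p = 0.0277, SE 0.468). The call was lost with no filter on low values (1.47), without siKLF5 B (1.48), without siKLF5 C (1.21) and without siNC A (1.34), with adjusted p from 0.0209 to 0.144. NMI had 1469.9 ± 171 units with siKLF5 and 1277 ± 157 units with siNC, with overlap and a log2 fold change of 0.20 (limma adjusted p = 0.19). IFI6, IFI44 and IFI44L were low, and their groups overlapped. IFI6, whose promoter holds 3 matches to the response element, had 107, 50 and 78.7 units in siKLF5 libraries, against 72.7, 72.9 and 90.3 units in siNC libraries, and IFI44 had 57.5, 100 and 63 units in siKLF5 libraries, against 81.8, 45.6 and 36.1 units in siNC libraries. IFI44L was read 5, 3 and 3 times with siKLF5 and 3, 1 and 0 times with siNC, too few to show a difference.

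The other antiviral effectors held the gene with the smallest adjusted p of the group. ISG20, an exonuclease that degrades RNA, had 567, 433 and 449 units in siKLF5 libraries, against 173, 173 and 145 units in siNC libraries. The lowest siKLF5 library was more than double the highest siNC library, at a log2 fold change of 1.55 (limma adjusted p = 1.39e-05, SE 0.195). SAMD9 and SAMD9L, neighbouring genes whose products restrict poxviruses, rose together although SAMD9 was the more abundant by signal. SAMD9L had 912, 808 and 906 units in siKLF5 libraries, against 445, 264 and 352 units in siNC libraries. SAMD9 had 2777, 2542 and 2787 units in siKLF5 libraries, against 1818, 1359 and 1644 units in siNC libraries. Neither gene's groups overlapped, and the log2 fold changes were 1.33 (limma adjusted p = 1.52e-05, SE 0.169) for SAMD9L and 0.76 (limma adjusted p = 1.52e-05, SE 0.0964) for SAMD9. PLSCR1, a phospholipid scramblase that also acts against viruses, had 2432, 2058 and 2205 units in siKLF5 libraries, against 1518, 1523 and 1346 units in siNC libraries. It separated fully, with a log2 fold change of 0.61 (limma adjusted p = 6.02e-05, SE 0.0881).

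BST2 (tetherin), which holds budding virus particles on the cell surface, rose 3.91-fold on 8, 12 and 8 estimated counts in siKLF5 libraries, against 2, 1 and 4 in siNC libraries. In units these were 65.7, 100 and 63 with siKLF5 and 18.2, 9.12 and 36.1 with siNC, without overlap, and the log2 fold change was 1.97 (limma adjusted p = 0.0267, SE 0.622). It was lost with no filter on low values (1.97), without siKLF5 A (2.06), without siKLF5 B (1.76), without siKLF5 C (2.09) and without siNC B (1.501), with adjusted p from 0.0141 to 0.126. EIF2AK2 (PKR), the kinase that stops translation when double-stranded RNA is present, had 1446, 1417 and 1677 units in siKLF5 libraries, against 1664, 1505 and 1608 units in siNC libraries. Its groups overlapped, and the narrow interval of its log2 fold change, -0.27 to 0.12, lay below a rise of 1.5-fold. RSAD2 (viperin) and its neighbour CMPK2, a nucleotide kinase, were not tested in BICR31: RSAD2 was read 1, 1 and 1 times with siKLF5 and 0, 0 and 1 times with siNC, and CMPK2 was at 0 in all 6 libraries. A level of 3 counts, the limit that a count of 0 allows, equals 1.31 to 1.56 CPM in BICR31.

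Among the remaining induced genes, TRIM21, a ubiquitin ligase that binds antibodies inside cells, had 419.1, 525 and 646 units in siKLF5 libraries, against 236, 283 and 352 units in siNC libraries. TRIM22, a related antiviral ligase, had 986, 742 and 795 units in siKLF5 libraries, against 464, 456 and 515 units in siNC libraries. Both rose without overlap, with log2 fold changes of 0.86 (limma adjusted p = 0.00309, SE 0.195) for TRIM21 and 0.80 (limma adjusted p = 0.000297, SE 0.137) for TRIM22. EPSTI1, named for its induction by stromal cells and strongly induced by interferon, had 312, 267 and 181 units in siKLF5 libraries, against 427, 392 and 361 units in siNC libraries. Every siKLF5 library was below every siNC library, and siKLF5 C was the lowest. Its log2 fold change was -0.67 (limma adjusted p = 0.0256, SE 0.209). The fall was not called without siKLF5 C (-0.44), without siNC A (-0.61) and without siNC B (-0.67), and adjusted p ranged from 0.0153 to 0.126 over the alternatives. XAF1, which promotes cell death, had 139.7, 83.3 and 70.9 units in siKLF5 libraries, against 63.6, 45.6 and 36.1 units in siNC libraries, without overlap and not called at a log2 fold change of 0.98 (limma adjusted p = 0.117). SP110, a nuclear body protein, had 156, 209 and 126 units in siKLF5 libraries, against 127, 155 and 208 units in siNC libraries, with overlapping groups.

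**Figure D2:**
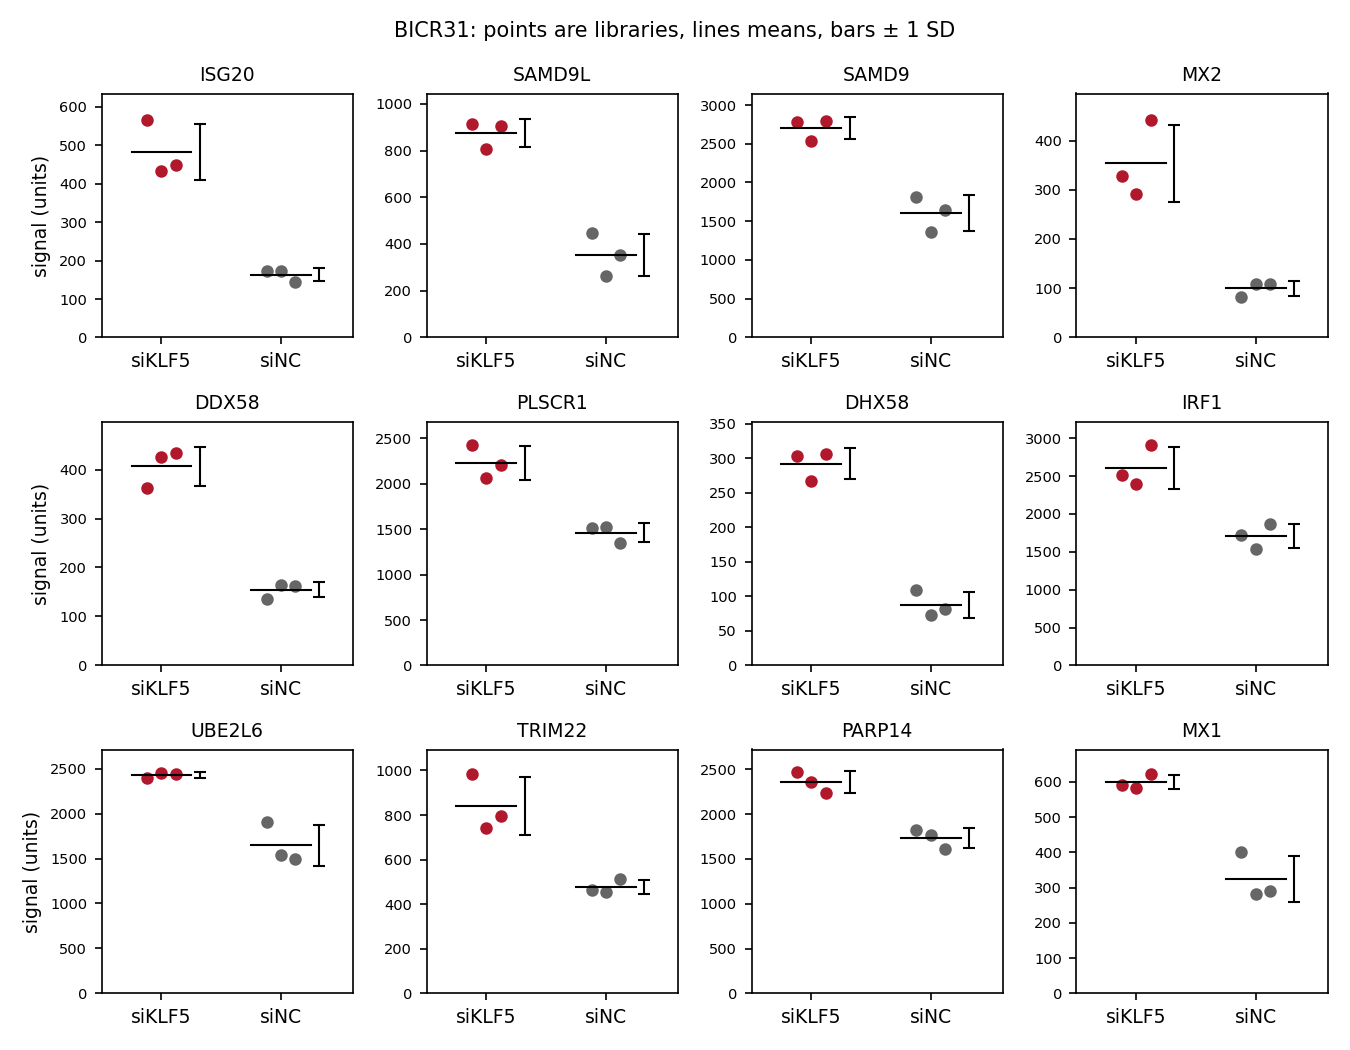
Signal in units (vertical axes, each from 0) of the 12 called interferon-stimulated genes with the smallest limma adjusted p in BICR31, siKLF5 left and siNC right. Points are libraries, lines are means and bars are 1 SD to either side (n = 3 each). In each of the 12 genes every siKLF5 point lies above every siNC point.

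Genes rose both with and without the response-element letters. With a match to them in the promoter, 14 of 23 tested genes rose and 1 fell, with a median log2 fold change of 0.49. Without one, 9 of 12 tested genes rose and none fell, with a median of 0.59. No test was made of these 2 groups. ISG20, SAMD9 and BST2 hold a match with the same 10 letters, GAAACTGAAA, and rose 2.93-fold, 1.69-fold and 3.91-fold with siKLF5. ISG15 and EPSTI1 hold GAAACCGAAA, and the one rose 1.71-fold while the other fell to 0.63 of the control. The promoters also differ in the number of matches, with 2 in BST2 and in ISG15 and 1 in ISG20, SAMD9 and EPSTI1.

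The signalling genes around the group showed where the pathway was expressed. Of 9 interferon genes (IFNA1, IFNB1, IFNE, IFNK, IFNW1, IFNG, IFNL1, IFNL2 and IFNL3), 8 had no count in any of the 12 libraries. IFNE was read 1, 0 and 1 times in siKLF5 libraries and not at all in siNC libraries, and at most 1 time in any HCC95 library. A count of 0 allows up to 1.56 CPM in BICR31 and up to 0.976 CPM in HCC95 in the shallowest library. Of the other 30 pathway genes, all tested in BICR31, 12 rose (40.0%) and 2 fell (6.67%) with siKLF5, where 15.3% of all genes rose and 10.8% fell, with a median log2 fold change of 0.28.

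The receptor chains bind type I, type II (gamma) or type III interferon. IFNGR2, the signalling chain of the interferon gamma receptor, had 1191, 1317 and 1378 units in siKLF5 libraries, against 673, 574 and 687 units in siNC libraries. It had the largest rise among the 30 genes, at a log2 fold change of 1.01 (limma adjusted p = 3.96e-06, SE 0.113). IFNAR1, a chain of the type I receptor, had 1964, 1967 and 2173 units in siKLF5 libraries, against 1418, 1331 and 1319 units in siNC libraries, with a log2 fold change of 0.58 (limma adjusted p = 5.28e-05, SE 0.0835). The siKLF5 libraries were above the siNC libraries in both genes, and likewise for IFNGR1, the ligand-binding gamma receptor chain (log2 fold change 0.51 (limma adjusted p = 0.00112, SE 0.101)). IFNAR2, IFNLR1 and IL10RB did not pass the test, at -0.06, 0.22 and 0.43 on the log2 scale.

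In the JAK-STAT relay JAK1 rose, at 2831 ± 21.3 units with siKLF5 and 2065 ± 154 units with siNC and a log2 fold change of 0.46 (limma adjusted p = 0.000186, SE 0.0744). JAK2, TYK2 and STAT3 were not called. Of 11 genes that relay the sensing of foreign nucleic acid, 4 rose: the adaptor TICAM1 (0.66 on the log2 scale, limma adjusted p = 9.59e-05), the ligase TRAF3 (0.47, limma adjusted p = 0.000792), the kinase IKBKE (0.35, limma adjusted p = 0.0214) and TMEM173 (STING), the adaptor of DNA sensing (0.34, limma adjusted p = 0.0438). The 2 falls of the pathway were here as well. MB21D1 (cGAS), the enzyme that detects DNA in the cytoplasm, had 403, 283 and 346 units in siKLF5 libraries, against 673, 529 and 469.7 units in siNC libraries, with a log2 fold change of -0.69 (limma adjusted p = 0.0079, SE 0.178). IRF3, the factor that switches on interferon genes, fell by 0.27 on the log2 scale, at 1459.7 ± 8.32 units with siKLF5 and 1766 ± 140.4 units with siNC (limma adjusted p = 0.0272).

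Of 9 feedback regulators 4 rose: CYLD, a deubiquitinase (0.70 on the log2 scale, limma adjusted p = 0.0018), IRF2, an antagonist of IRF1 (0.44, limma adjusted p = 0.0499), and the phosphatases PTPN6 (0.42, limma adjusted p = 0.0302) and PTPN11 (0.20, limma adjusted p = 0.0133). Of the 14 called pathway genes, 7 kept their call under all 10 alternatives. MB21D1 was lost without siNC A (-0.55), IKBKE without siKLF5 A (0.32), without siKLF5 B (0.36) and without siNC C (0.30), and PTPN11 with quantile normalization (0.13), without siKLF5 B (0.18) and without siNC B (0.17). TMEM173 was lost with no filter on low values (0.34), with quantile normalization (0.29), without siKLF5 A (0.36), without siKLF5 B (0.36), without siKLF5 C (0.30), without siNC A (0.32) and without siNC B (0.27), with adjusted p from 0.026 to 0.147. IRF2 was lost with no filter on low values (0.44), with quantile normalization (0.40), without siKLF5 A (0.49), without siKLF5 B (0.45), without siKLF5 C (0.39) and without siNC A (0.24), with adjusted p from 0.0271 to 0.229. PTPN6 was lost with no filter on low values (0.42), with quantile normalization (0.37), without siKLF5 B (0.37), without siKLF5 C (0.38), without siNC B (0.43) and without siNC C (0.27), with adjusted p from 0.00704 to 0.163. IRF3 was lost without siKLF5 A (-0.27), without siKLF5 B (-0.28), without siKLF5 C (-0.27), without siNC A (-0.26) and without siNC B (-0.22), with adjusted p from 0.00775 to 0.117. Leaving out siNC A for IRF2 and siNC C for PTPN6 lowered the value by over 1.5 times, and no alternative changed a direction.

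**Figure D3:**
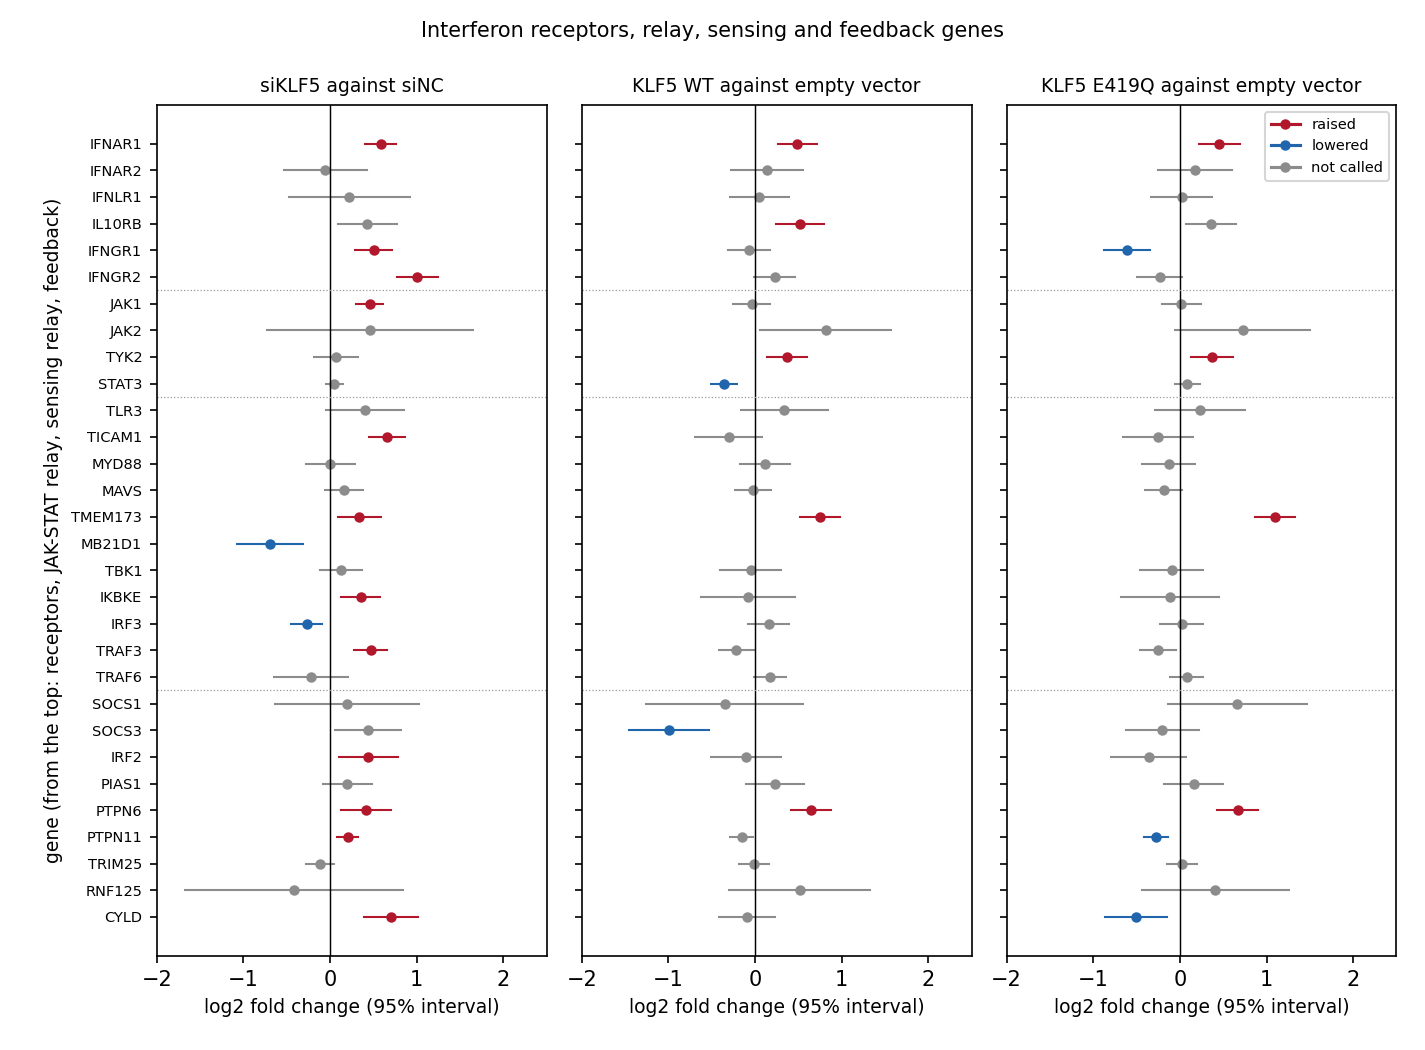
Log2 fold change with 95% interval (horizontal axes) of 30 interferon receptor, relay, sensing and feedback genes (rows) for siKLF5 against siNC in BICR31 and for WT and E419Q against the empty vector in HCC95. Red marks a called rise, blue a called fall and grey no call. IFNGR2 stands at 1.01 on the left, and TMEM173 lies right of 0 in all 3 panels, while MB21D1 has no point in HCC95, where it was not tested.

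Summed counts of markers of other cell types were higher with siKLF5 in BICR31, but only some of the markers rose. The summed count of 9 immune cell markers was 34 to 46 in siKLF5 libraries and 13 to 28 in siNC libraries, with 4 to 6 and 6 to 7 of the markers at 0. CD3E, MS4A1 and NKG7, which define lymphocytes, were at 0 in all 12 libraries, and PTPRC, which all white blood cells carry, was read at most 2 times in any library. Nearly all of the sum came from CD14, at 32, 21 and 30 estimated counts in siKLF5 libraries and 19, 20 and 10 in siNC libraries, and ITGAM, at 8, 12 and 13 and 1, 6 and 3. Of these 2, the only immune markers tested, ITGAM rose 3.53-fold and CD14 did not pass the test. The summed count of 8 fibroblast and endothelial markers was 188 to 205 with siKLF5 and 81 to 102 with siNC, led by COL1A1, at 1229.9 ± 89.7 units with siKLF5 and 560.1 ± 47 units with siNC. Of the 6 tested in this list COL1A1 and VWF rose, 2.20-fold and 2.32-fold, and CDH5 did not pass the test (limma adjusted p = 0.0517). VWF was read 25, 14 and 16 times with siKLF5 and 7, 9 and 5 times with siNC. CDH5 was read 17, 13 and 10 times with siKLF5 and 4, 5 and 7 times with siNC. KDR was nearly level, at 87.3 ± 27.2 units with siKLF5 and 81.8 ± 31.8 units with siNC. THY1, PDGFRA, PDGFRB and COL3A1 were at 4 counts or fewer. Among them PDGFRB was lower with siKLF5, at 1, 1 and 2 counts against 2, 2 and 3 with siNC. The summed count of the 9 squamous markers was 13192 to 14304 with siKLF5 and 15700 to 16021 with siNC, and these markers moved in both directions. Of the 9, 6 fell, among them KRT5 and KRT17, which hold most of the sum, and 2 rose, CDH1, at 25167 ± 1021 units with siKLF5 and 14362 ± 285 units with siNC, and DSG3, at 2868 ± 121 units with siKLF5 and 1622 ± 20.9 units with siNC. The siKLF5 libraries were also the deeper ones. The part of these markers and of depth in the rise of the interferon-stimulated genes was not tested.

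With extra KLF5 in HCC95 the interferon-stimulated genes stayed mostly uncalled. Against the empty vector, WT raised 2 of the 34 tested genes, IFIT3 and IRF1, and lowered 1, BST2, where 10.8% of all 12933 genes rose and 12.1% fell, 22.9% in either direction (edgeR adjusted p under 0.05). E419Q raised 1, STAT2, and lowered 0, where 10.4% rose and 10.8% fell, 21.2% in either direction. Both comparisons share the empty-vector libraries. At an unadjusted p under 0.05, 7 of the 34 genes passed with WT and 3 with E419Q, where 34.8% and 33.0% of all genes did, and DESeq2 called 0 in either comparison, as it called fewer genes overall. The median log2 fold change of the 34 genes was 0.18 with WT and 0.09 with E419Q, against 0.00 over all genes in both.

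Low levels limited what could be seen in HCC95. The 34 tested genes had a median level of 8.78 CPM, against 28.7 CPM over all genes, and the median width of their 95% intervals with WT was 1.13 on the log2 scale, against 0.615. For 22 genes with WT (64.7%) and 25 with E419Q (73.5%) the interval nevertheless excluded a change of 2-fold in either direction. Over all genes tested it did so for 79.2% with WT and 78.0% with E419Q. The 11 genes not tested in HCC95 for low counts were OASL, MX2, HERC5, IFI27, IFI44, IFI44L, RSAD2, CMPK2, ISG20, XAF1 and EPSTI1. Per length, PLSCR1 was the most abundant gene of the group with the empty vector, at 70.4 ± 2.63 TPM (SD, n = 2), followed by TRIM22 at 51.1 ± 4.99, EIF2AK2 at 34.7 ± 1.7 and ISG15 at 34 ± 6.82 TPM. EIF2AK2 and ISG15 did not differ beyond their spread. In all, 15 genes stood at 10 TPM or more, 24 between 1 and 10 TPM and 6 under 1 TPM, with IFI44L and XAF1 at 0.

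IFIT3 had 5.5 and 3.83 CPM in E419Q libraries and 5.44 and 5.29 CPM in WT libraries, against 2.05 and 2.18 CPM in empty-vector libraries. These rest on 17 and 13, 19 and 21, and 7 and 10 counts, in that order of groups. Both vectors stood above the empty vector without overlap, but only the WT comparison passed, with a log2 fold change of 1.32 (edgeR adjusted p = 0.024, SE 0.414), against 1.11 (edgeR adjusted p = 0.0759, SE 0.438) for E419Q. The WT call was lost with DESeq2 (1.32), without empty vector A (1.28), without empty vector B (1.37), without WT A (1.30) and without WT B (1.34), with adjusted p from 0.0126 to 0.126 over its 9 alternatives. Its neighbour IFIT2 had 3.88 and 4.13 CPM in E419Q libraries and 7.16 and 4.78 CPM in WT libraries, against 2.35 and 3.28 CPM in empty-vector libraries, with a WT log2 fold change of 1.03 that did not pass (edgeR adjusted p = 0.0598). IFIT1 and IFIT5 lay at 0.15 and -0.05 with WT.

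IRF1 had 31.4 and 26.5 CPM in E419Q libraries and 43.2 and 39.3 CPM in WT libraries, against 33.8 and 28.8 CPM in empty-vector libraries. The WT libraries were the highest, and E419Q and empty-vector libraries overlapped. The log2 fold change was 0.41 (edgeR adjusted p = 0.0302, SE 0.134) for WT and -0.10 (edgeR adjusted p = 0.68, SE 0.147) for E419Q, both against the empty vector. The WT call was lost with DESeq2 (0.39), without empty vector B (0.28), without WT A (0.34) and without WT B (0.48), with adjusted p from 0.0205 to 0.449. STAT2 had 43.3 and 45.7 CPM in E419Q libraries and 40.4 and 34.7 CPM in WT libraries, against 33.2 and 24.9 CPM in empty-vector libraries. Both vectors were above the empty vector, whose B library was the lowest. The log2 fold change was 0.64 (edgeR adjusted p = 0.00243, SE 0.145) for E419Q and 0.39 (edgeR adjusted p = 0.0571, SE 0.146) for WT. The E419Q call was lost with DESeq2 (0.62) and without empty vector B (0.42), with adjusted p from 0.000281 to 0.147.

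BST2 had 3.88 and 4.13 CPM in E419Q libraries and 1.15 and 2.52 CPM in WT libraries, against 7.63 and 5.46 CPM in empty-vector libraries, on 12 and 14, 4 and 10, and 26 and 25 counts in that order. The empty-vector libraries were the highest and the WT libraries the lowest, with no overlap among the 3 groups. The log2 fold change was -1.76 (edgeR adjusted p = 0.00491, SE 0.433) for WT and -0.68 (edgeR adjusted p = 0.228, SE 0.383) for E419Q. The WT call was lost with DESeq2 (-1.83), without empty vector A (-1.53) and without WT A (-1.34), with adjusted p from 0.00023 to 0.0907. BST2 was thus higher with siKLF5 in BICR31 and lower with WT in HCC95, on few counts in both lines.

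**Figure D4:**
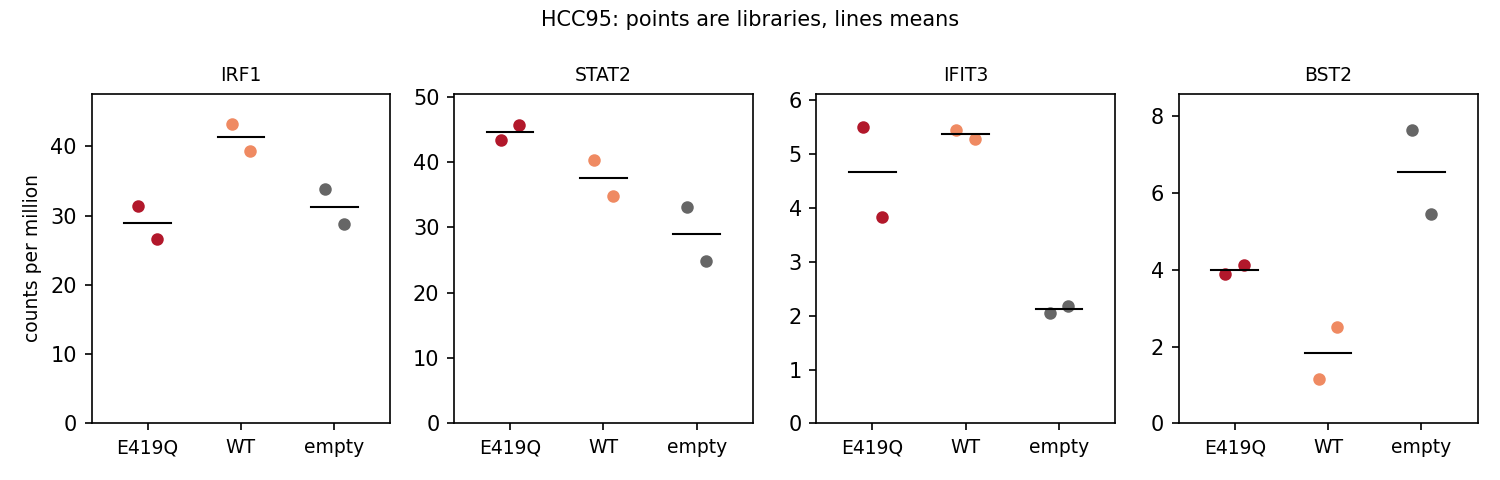
CPM (vertical axes, each from 0) in the HCC95 libraries of the 4 interferon-stimulated genes called in any comparison, with E419Q and WT left of the empty vector. Points are libraries and lines are means (n = 2 each). WT points are lowest for BST2 and highest for IRF1, and empty-vector points are lowest for STAT2 and IFIT3.

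Between the proteins, E419Q against WT, 1 of the 34 genes was lowered, IRF1, and 0 were raised, where 4.41% of all genes were higher and 3.59% lower, 8.00% in either direction. At an unadjusted p under 0.05, 2 of the 34 genes passed, where 19.0% of all genes did, and DESeq2 called 0. IRF1 had a log2 fold change of -0.51 (edgeR adjusted p = 0.025, SE 0.141), with both E419Q libraries below both WT libraries. The call was lost with DESeq2 (-0.51), without E419Q B (-0.39), without WT A (-0.44) and without WT B (-0.58), with adjusted p from 0.0133 to 0.639. Both E419Q libraries lay above both WT libraries for BST2, at a log2 fold change of 1.09 (95% interval 0.06 to 2.11), but did not pass (edgeR adjusted p = 0.224). For 25 of the 34 genes (73.5%) the interval of the difference between the proteins excluded 2-fold, as it did for 81.8% of all genes. The median difference of the 34 genes was -0.01.

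Of the 27 genes that rose with siKLF5, 23 were tested in HCC95. With WT 1 of them rose (IRF1), 1 fell (BST2) and 21 were not called, while with E419Q 1 rose (STAT2) and 22 were not called. Over all 12933 genes tested in HCC95, 22.9% were called with WT and 21.2% with E419Q. The share among all genes that rose with siKLF5 was not worked out. Whether these counts are particular to the group was therefore not tested. Across the 34 genes tested in both lines, which share no library, the log2 fold changes with siKLF5 and with WT had a Pearson r of -0.55 and a Spearman rho of -0.40. Without BST2, left out after its values were seen, r was -0.32 over 33 genes. With E419Q in place of WT, over the same 34 genes, r was -0.25 and rho -0.16. No test was made across the lines, whose values were normalised separately. The same correlations over all genes were not worked out, so they are not shown to be particular to this group. The RNA sensors, all raised in BICR31, had log2 fold changes with WT of 0.20 for DDX58, 0.29 for IFIH1, -0.10 for DHX58 and 0.26 for DDX60, none called. PLSCR1, the most abundant gene per length, had 53.4 and 56.3 CPM in E419Q libraries and 50.7 and 52.6 CPM in WT libraries, against 52.3 and 54.2 CPM in empty-vector libraries, and its interval with WT ran from -0.26 to 0.17.

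**Figure D5:**
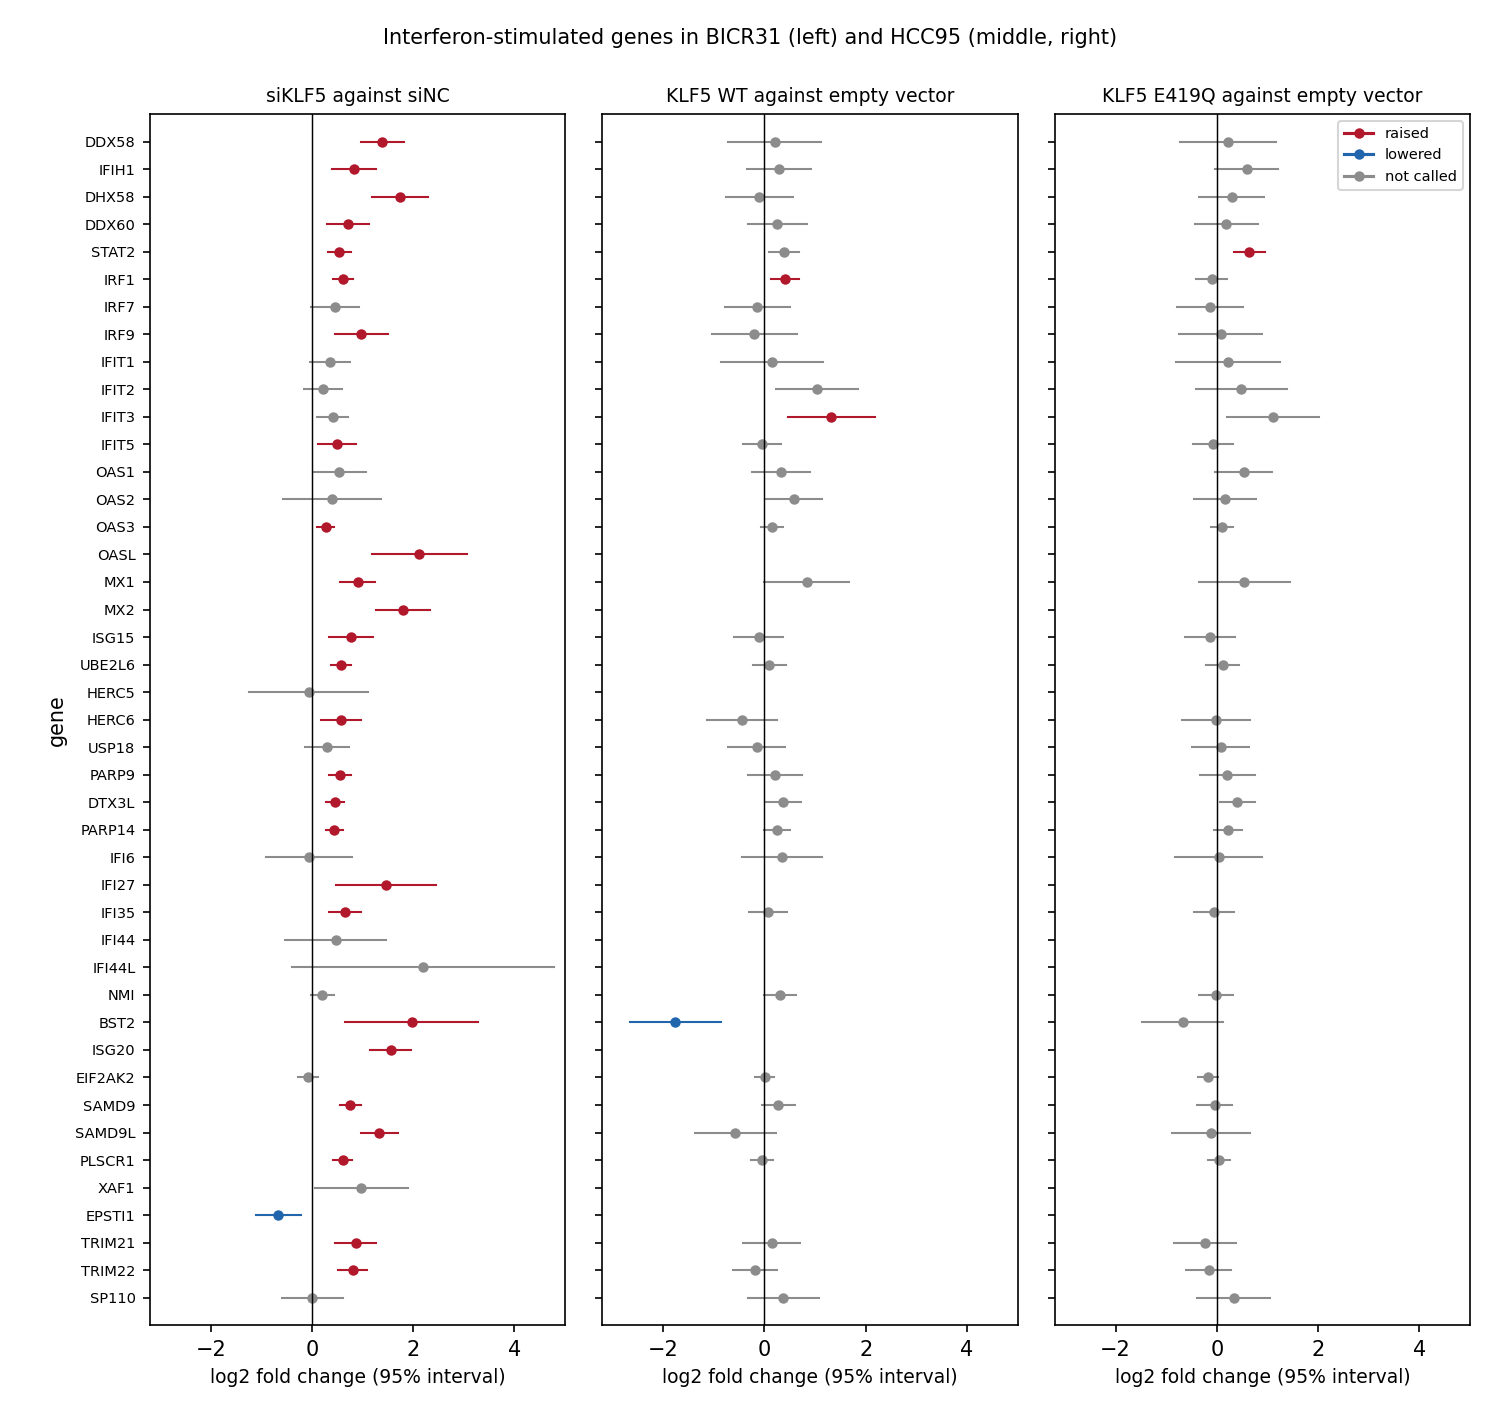
Log2 fold change with 95% interval (horizontal axes) of the interferon-stimulated genes tested (rows) for siKLF5 against siNC in BICR31 and for WT and E419Q against the empty vector in HCC95. Red marks a called rise, blue a called fall and grey no call, and a row without a point was not tested. Most points of the left panel lie right of 0, while those of the other panels lie on either side of it.

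Among the signalling genes in HCC95, of 29 tested, WT raised 5 and lowered 2, and E419Q raised 4 and lowered 3. In either comparison 24.1% of them were called, close to the 22.9% and 21.2% of all genes called with WT and E419Q, so that the counts do not set these genes apart. TMEM173 (STING) had 76.7 and 86.7 CPM in E419Q libraries and 67 and 61.9 CPM in WT libraries, against 37 and 39.3 CPM in empty-vector libraries. Both vectors were above the empty vector and E419Q above WT, with log2 fold changes of 1.10 (edgeR adjusted p = 1.54e-07, SE 0.111) for E419Q and 0.75 (edgeR adjusted p = 3.92e-05, SE 0.113) for WT. IFNAR1 had 64 and 60.8 CPM in E419Q libraries and 66.7 and 60.9 CPM in WT libraries, against 48.4 and 43 CPM in empty-vector libraries, higher with both vectors, at 0.46 (edgeR adjusted p = 0.00491, SE 0.112) for E419Q and 0.49 (edgeR adjusted p = 0.00228, SE 0.109) for WT. It was also raised by siKLF5 in BICR31. PTPN6 and the kinase TYK2 rose with both proteins as well, by 0.67 and 0.37 with E419Q and by 0.65 and 0.37 with WT, and IL10RB, a chain of the type III receptor, rose with WT by 0.52 (edgeR adjusted p = 0.00604).

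The difference between the proteins was tested for all of these genes. IL10RB did not differ past the threshold between E419Q and WT (-0.16, 95% interval -0.43 to 0.11, edgeR adjusted p = 0.577). SOCS3, the feedback inhibitor of STAT3 signalling, had 14.9 and 17.1 CPM in E419Q libraries and 11.5 and 7.3 CPM in WT libraries, against 19.4 and 17.7 CPM in empty-vector libraries. It fell with WT, at -0.99 (edgeR adjusted p = 0.00222, SE 0.221), and was higher with E419Q than with WT, at 0.79 (edgeR adjusted p = 0.0398, SE 0.235). STAT3 had 195 and 194 CPM in E419Q libraries and 148 and 138 CPM in WT libraries, against 181 and 185 CPM in empty-vector libraries. It too fell with WT, at -0.36 (edgeR adjusted p = 0.000865, SE 0.0723), and was higher with E419Q than with WT, at 0.45 (edgeR adjusted p = 0.000213, SE 0.0735). IFNGR1 had 31.1 and 41.9 CPM in E419Q libraries and 52.1 and 54.9 CPM in WT libraries, against 56.7 and 55.7 CPM in empty-vector libraries. It fell with E419Q, at -0.61 (edgeR adjusted p = 0.00127, SE 0.128), and was lower with E419Q than with WT, at -0.55 (edgeR adjusted p = 0.00874, SE 0.131). IFNGR2 was lower with E419Q than with WT (-0.46, edgeR adjusted p = 0.0197), and TMEM173 was higher (0.35, edgeR adjusted p = 0.0374). CYLD and PTPN11 fell with E419Q, with log2 fold changes of -0.51 and -0.27 (edgeR adjusted p = 0.0363 and 0.00536), and their differences from WT, -0.42 and -0.12, did not pass (edgeR adjusted p = 0.172 and 0.386).

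All alternatives kept the call of TMEM173, PTPN6 and STAT3 with WT, of TMEM173 and PTPN6 with E419Q, and of STAT3 between the proteins. With WT, IFNAR1 was lost with DESeq2 (0.47), IL10RB with DESeq2 (0.50) and without empty vector B (0.40), SOCS3 with DESeq2 (-1.0) and without WT B (-0.69), and TYK2 with DESeq2 (0.37), without empty vector A (0.26), without WT A (0.33) and without WT B (0.41). With E419Q against the empty vector, IFNAR1 was lost with DESeq2 (0.44), without E419Q A (0.42) and without empty vector B (0.36), IFNGR1 with DESeq2 (-0.63) and without E419Q A (-0.42), PTPN11 with DESeq2 (-0.28) and without E419Q B (-0.27), TYK2 with DESeq2 (0.37), without E419Q A (0.32), without E419Q B (0.43) and without empty vector A (0.26), and CYLD with DESeq2 (-0.52), with only the 4 libraries compared in the fit (-0.51), without E419Q A (-0.56), without E419Q B (-0.46), without empty vector A (-0.46) and without empty vector B (-0.57). Between E419Q and WT, IFNGR1 was lost with DESeq2 (-0.55), without E419Q A (-0.36) and without WT B (-0.51), IFNGR2 with DESeq2 (-0.46), without E419Q A (-0.46), without E419Q B (-0.47) and without WT B (-0.37), SOCS3 with DESeq2 (0.78), without E419Q A (0.88), without E419Q B (0.68) and without WT B (0.48), and TMEM173 with DESeq2 (0.35), without E419Q A (0.43), without E419Q B (0.25), without WT A (0.40) and without WT B (0.29). No direction changed.

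Some of these counts may include reads of other genes. Exons of 11 of the 45 genes overlap another gene in GENCODE 29, on the opposite strand for 9 of them (DTX3L, EIF2AK2, IRF1, ISG15, MX1, OAS1, PARP9, SP110 and XAF1) and on the same strand for IFIT2 and IRF9. RSEM divides reads that match several genes by estimate, so that counts of near copies such as IFIT family members, OAS family members or SAMD9 and SAMD9L are less certain. The 45 genes lie on many chromosomes, with 6 on chromosome 2, 5 on chromosome 12 and 4 on chromosome 10, the last being the IFIT genes.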

How the data were processed

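RNA was extracted, poly(A)-selected and made into libraries with kits named in the labels' protocols, and the submitters' processing notes name STAR, RSEM and the build hg19 without versions, and for HCC95 edgeR and limma as well. The BICR31 files hold a deposited signal per gene named as normalised. How the authors scaled it was not given in the sources used here. The 75th percentile of its values above 0 lay at 983 to 992 in each library. For HCC95 the authors deposited expected counts without scaling and, beside them, TPM, per the file headers.

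In BICR31 low values were multiples of 7.87 to 9.12 units, which made 81.7% to 82.7% of values above 0 whole within 0.02; estimated counts come from this step and served only to show depth, in which intervals and floors cover counting error only. The test was limma 3.58.1 (empirical Bayes with a trend) on log2(signal + 1), over the 15710 genes whose mean reached 10 units. Fold changes of genes with low signal depend on the number added before the log. With 10 added in place of 1, the log2 fold change went from 1.97 to 1.54 for BST2 and from 2.12 to 1.86 for OASL. In HCC95 expected counts were rounded and tested with edgeR 4.0.16 (quasi-likelihood, TMM, filterByExpr, 12933 genes, all 6 libraries in the fit), and CPM are TMM-scaled. All p-values are two-sided and were adjusted by the Benjamini-Hochberg method over all genes tested, and the threshold was 0.05. DESeq2 1.42.0 served as an alternative. R 4.3.3 ran the tests, and Python 3.11.15 with pandas 2.3.3, numpy 2.4.6 and matplotlib 3.10.9 the rest. The tests were run on simulated data with the same spread for every gene and changes set only in genes of higher counts. That check therefore does not cover genes of few counts.

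The genes and lists were chosen with earlier results of these data known; 2 genes of the lists other than the 45 are not reported here and not counted. All 45 genes are accounted for by role, every called one is named, and values of every library are given for the 12 with the smallest adjusted p and for others tied to them by role. Alternatives were another pseudocount (10), no filter, quantile normalization, other size factors, only the libraries compared, the replicate letters as a block, and leaving out each library; for the other pathway genes they were added after seeing the data. Each gene symbol was matched to its ID through the HCC95 files. Promoter sequences and coordinates are from RefSeq on GRCh38.p14, a later build than the hg19 of the counts, so that no read was placed on them; DHX58, IRF7, IFIT2, OAS2, OASL, MX2, USP18 and TRIM22 had no promoter entry. All 45 genes are protein-coding in GENCODE 29.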

Additional observations from a re-analysis of the deposited data

How the results depend on the processing

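With siKLF5, the number of raised genes was 27 and stayed within 20 to 28 under all 10 alternatives, and 20 to 26 when a library was left out. Of the 28 calls 19 held under every alternative, and no alternative reversed a direction. The replicate block by letter gave 27 raised genes, of which 26 were shared. Deviations from the group means were not correlated between libraries with the same letter (correlations of -0.03 to 0.03). With means of only 2 or 3 libraries of low depth, this cannot tell whether a letter marks a shared culture or batch. The number lowered was 0 to 1 when a library was left out. In HCC95, leaving out a library gave 0 to 2 raised and 0 to 1 lowered with WT, 0 to 1 raised with E419Q, and 0 to 1 lowered between E419Q and WT; a group left with 1 library is assumed to vary like the others. DESeq2 gave 0 raised and 0 lowered with WT, 0 raised with E419Q and 0 lowered between the proteins. Over all genes DESeq2 called 951, 963 and 382 for WT, E419Q and E419Q against WT, where edgeR called 2962, 2737 and 1034. The gene sets differed, as DESeq2 was given 23559 genes without filterByExpr and edgeR the 12933 genes that passed it. The cause of the gap was not tested. Depth limits genes of few counts: 11 tested genes had under 10 estimated counts in some BICR31 library, and 11 genes were left out of the HCC95 test by the filter on low counts. With no filter 44 of the 45 were tested there, and WT raised 3.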
